A study of Mus musculus with 2 samples.

Results

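Malat1 and Neat1 are long noncoding RNAs of the cell nucleus, and their levels were described across single macrophages and microglia of the crushed and the uninjured mouse optic nerve. The members were the 2 rows with these names among the 31053 gene rows of the count table, and both rows held counts in both libraries. They were chosen because their share of a cell's counts was already known to vary with the depth and the condition of the cells. Their shares by depth and condition, and their relations to each other and to the shares of mitochondrial and ribosomal protein genes, are therefore descriptions and carry no test.

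The injured library held cells of optic nerves of Wildtype 129S1/SvlmJ mice whose nerves were crushed at 8 weeks of age, taken 2 weeks after the crush at 10 weeks of age. The uninjured library held cells of untreated optic nerves of Wildtype 129S1/SvlmJ mice, also at 10 weeks of age. These ages are those of the series' design text, and the labels' source name gives P56 for both libraries. The optic nerve carries the axons of retinal ganglion cells to the brain, and its macrophages and microglia are the phagocytes that take up axon and myelin debris after a crush. Both sexes gave cells per the series' design text; not given in the sources used here is how many animals each library pooled. With 1 library per condition, no difference between injured and uninjured cells has a replicate check, and no test was made.

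Malat1 is retained in nuclear speckles, bodies that store splicing factors, and is among the most abundant RNAs that 3′ end sequencing finds in mammalian cells. Neat1 is the scaffold of paraspeckles, bodies that form around its long transcript and hold RNA-binding proteins such as those encoded by Sfpq and Nono. The mature 3′ ends of Malat1 and of the long Neat1 transcript carry no ordinary poly(A) tail: an enzyme that processes transfer RNAs cuts them, and a triple helix of U-rich and A-rich stretches protects the end, while the short Neat1 transcript is polyadenylated in the usual way.

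The 3′ stretches below are shown because a 3′ end method counts molecules from primed A-rich ends. Malat1 (ENSMUSG00000092341.3) lies at chr19:5795690-5802672 on the minus strand of GRCm38, the assembly also called mm10, and its transcript Malat1-201 has 6983 bases. Neat1 (ENSMUSG00000092274.3) lies at chr19:5824708-5845478 on the same strand, 22035 bases away. Its long transcript Neat1-201 has 20771 bases and its short transcript Neat1-202 has 3004. In Malat1-201 and Neat1-201 capitals mark the TTTTGCTTTT stretch and the A-rich tract, which are parts of the triple helix and not all of it. In Neat1-202 capitals mark the AATAAA letters of the polyadenylation signal. The stretches run 5′ to 3′ in the transcript and were read from GENCODE vM21, at chr19:5795948-5796059, chr19:5824708-5824817 and chr19:5842307-5842366 in that order.
Malat1-201: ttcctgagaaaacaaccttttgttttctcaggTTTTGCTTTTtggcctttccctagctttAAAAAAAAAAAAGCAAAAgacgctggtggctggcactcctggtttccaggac
Neat1-201: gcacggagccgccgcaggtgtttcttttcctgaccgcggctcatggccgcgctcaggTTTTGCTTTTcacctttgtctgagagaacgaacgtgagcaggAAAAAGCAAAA
Neat1-202: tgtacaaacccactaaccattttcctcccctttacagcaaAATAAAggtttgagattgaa

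The arrangement of these letters was rare. On the transcript strand, TTTTGCTTTT followed within 100 bases by AAAAAGCAAAA occurred in 4 of 141767 annotated transcripts, which belonged to 3 genes, Malat1, Neat1 and Retreg3. These letters are the last 11 bases of Neat1-201 and the reverse complement of its last 10. TTTTGCTTTT alone occurred in 1.08% of transcripts and AAAAAGCAAAA alone in 0.436%. Malat1-201 also holds 1 run of 12 A, at its A-rich tract, while neither Neat1 transcript holds a run of at least 10 A, which 7.18% of all transcripts do. The annotated Malat1-201 runs on for 298 bases after its A run, and Neat1-201 ends at its A-rich tract. Counts per gene cannot tell apart molecules primed at a tail from those primed at an inner A run, nor the long from the short Neat1 transcript.

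The injured library held 727 cells and 3697992 UMIs (unique molecular identifiers, each standing for 1 captured molecule), and the uninjured library held 51 cells and 87499 UMIs. A cell had 500 to 53972 UMIs in the injured library, with a median of 1123, and 458 to 11100 in the uninjured library, with a median of 888. Cells of at least 5000 UMIs, called deep here, numbered 144 and held 79.9% of injured UMIs, and numbered 4 and held 41.1% of uninjured UMIs. All 17 genes of a macrophage and microglia marker list had UMIs in each library, which took 5.75% of the injured and 3.72% of the uninjured total. Of the deep uninjured cells, 1 had 10194 haemoglobin UMIs of 11100, and member levels that rest on it are given with and without it. Without it the macrophage and microglia list took 4.26% of the uninjured total. The libraries shared 0 cell barcodes. Intervals are exact at 95% (Poisson for levels, Clopper-Pearson for shares, conditional binomial for ratios) and cover counting error only, not the spread between cells or animals.

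Malat1 took a smaller part of all UMIs after the crush. It had 37921 UMIs or 1.03% of injured UMIs (1.02 to 1.04) and 2122 UMIs or 2.43% of uninjured UMIs (2.32 to 2.53). In CPM, UMIs scaled to a common library total, the level was 10254 in injured and 24252 in uninjured cells, 2.37-fold lower in injured cells (2.26 to 2.47). On the log2 scale with a pseudocount of 10 CPM the difference was -1.24, and 323 of the 4021 genes compared had a lower one. Ordered by UMI count, not divided by transcript length, Malat1 stood at rank 9 of 14303 detected genes in injured and rank 3 of 8124 in uninjured cells, or rank 2 without the haemoglobin-rich cell.

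The sum and the single cells gave different pictures of Malat1. Per cell, the Malat1 share was 0% at its lowest, 0.204% at the median and 13.3% at its highest in injured cells, and 0%, 0.160% and 10.9% in uninjured cells. The ranges overlapped almost wholly, and the median injured cell lay slightly above the median uninjured cell although the injured sum was lower. Both medians stand for very few Malat1 UMIs in a cell, so no order was read from them. At least 1 Malat1 UMI was found in 585 injured cells (80.5%, 77.4 to 83.3) and 33 uninjured cells (64.7%, 50.1 to 77.6). After thinning each cell to 500 UMIs, for which 2 uninjured cells were too shallow, the shares were 65.8% (62.2 to 69.2) and 55.1% (40.2 to 69.3), and these intervals overlapped.

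Neat1 was far scarcer than Malat1 and rested on few uninjured molecules. It had 1012 UMIs or 274 CPM (257 to 291) in injured cells and 41 UMIs or 469 CPM (336 to 636) in uninjured cells, 1.71-fold lower in injured cells (1.22 to 2.34). The log2 difference was -0.75, and 695 of the 4021 genes had a lower one. The direction depended on the weight of the deep cells: in cells under 5000 UMIs Neat1 had 468 CPM in injured, against 407 CPM in uninjured cells, a ratio of 1.15 (0.741 to 1.88), and with equal weight for each cell the levels were 393 and 392 CPM. At least 1 Neat1 UMI was found in 229 injured cells (31.5%) and 12 uninjured cells (23.5%), and after thinning in 12.8% and 14.3%. Loci that overlap ribosomal RNA repeats left out, Malat1 held 75.5% of long noncoding RNA UMIs in injured and 81.2% in uninjured cells, and Neat1 was the second most counted in injured and the third in uninjured cells. Of the loci left out, Gm42418, annotated as a long noncoding RNA, had 107156 UMIs in injured and 918 in uninjured cells, and AY036118 had 9316 and 131.

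**Figure D1:**
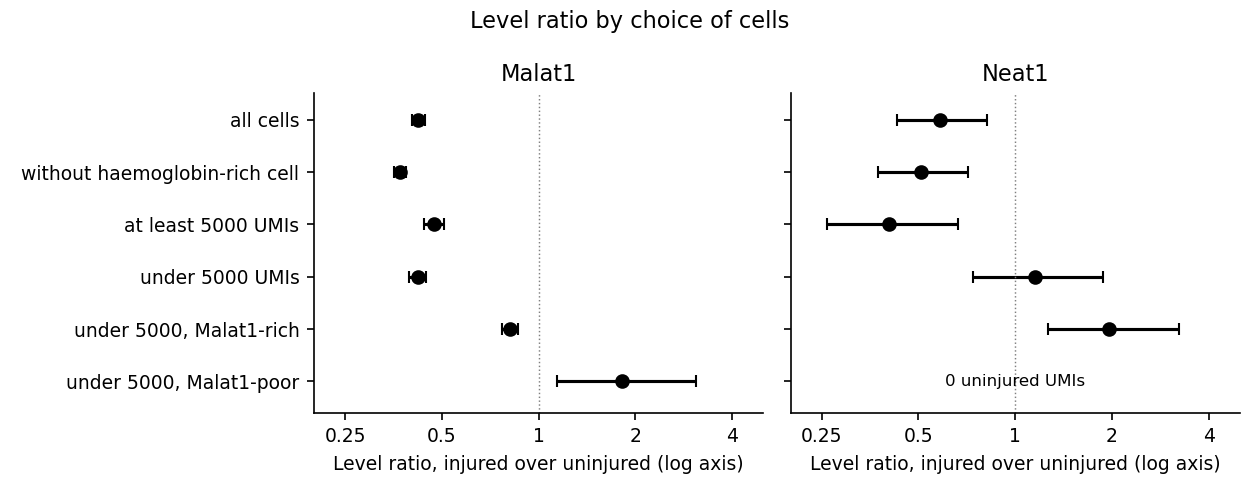
Ratio of the Malat1 and Neat1 level in injured over uninjured cells (log axis), for all cells and for 5 choices of cells; points are ratios of summed counts and bars exact 95% intervals for counting error. Malat1 lies below 1 in the 4 upper rows; the 2 lower rows are cut on Malat1 itself, which bounds its ratio there. Neat1 lies below 1 in all cells (0.584) and in deep cells (0.403), and above 1 in the Malat1-rich cells (1.97).

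Both RNAs were concentrated in part of the cells, and so were all UMIs. The 99 injured cells over 15000 UMIs held 2530028 of 3697992 injured UMIs, 22550 of 37921 Malat1 UMIs and 492 of 1012 Neat1 UMIs. The parts given next are not separated from depth, so they were not read as a trait of the 2 RNAs. The 73 injured cells with the most Malat1 UMIs held 57.0% of injured Malat1, and the 73 with the most Neat1 held 71.7% of injured Neat1. In the uninjured library 50% of the Malat1 UMIs came from 5 cells and 50% of the Neat1 UMIs from 4 cells, against 60 and 32 cells in the injured library. The cell with the highest Malat1 share in the injured library had 743 Malat1 UMIs of 5602, and 36 Neat1 UMIs. The cell with the most Neat1 UMIs had 64 and held 6.32% of all injured Neat1. Without the injured cell that had the most UMIs of the gene, the log2 difference was -1.27 for Malat1 and -0.83 for Neat1.

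At matched depth the summed Malat1 share was lower in injured cells in every bin that both libraries filled. It was 0.293% in injured and 1.01% in uninjured cells under 600 UMIs (109 and 12 cells), and 0.465% and 2.24% from 600 to 1000 (218 and 17 cells). It was 1.05% in injured and 2.84% in uninjured cells from 1000 to 2000 UMIs (151 and 13 cells), and 1.66% and 3.48% from 2000 to 5000 (105 and 5 cells). From 5000 to 15000 UMIs it was 1.69% in 45 injured cells and 2.13% in 4 uninjured cells, of which the haemoglobin-rich cell is 1. Without that cell the uninjured share there was 3.07%. The ratio of injured over uninjured was nearest to 1 in the deepest shared bin, 0.793 with that cell and 0.550 (0.510 to 0.593) without it, and lowest from 600 to 1000 UMIs (0.208). The 99 injured cells over 15000 UMIs had no uninjured counterpart; their summed share was 0.891%, and single cells lay between 0.201% and 2.03%.

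Medians showed a different order from the sums among shallow cells. The median Malat1 share of injured cells was 0.186%, 0.163%, 0.110% and 0.0951% in the 4 bins up to 5000 UMIs, then 1.53% and 0.849% in the 2 deeper bins. The median share was thus lower in each deeper bin up to 5000 UMIs, while the sum over the cells of the bin was higher in each. These medians stand for very few Malat1 UMIs, and 159 injured cells had only 1. The share that 1 UMI makes falls as depth rises, so the order of the medians was not read as less Malat1. In uninjured cells the medians were 0%, 0.127%, 2.45%, 4.19% and 2.38% in the 5 filled bins. Neat1 showed no one direction by bin: it had 20 UMIs in injured and 0 in uninjured cells under 600 UMIs, then ratios of 0.542 (0.268 to 1.24), 0.988 (0.481 to 2.36), 1.98 (0.759 to 7.34) and 0.726 (0.456 to 1.22) in the next 4 bins, and each of these intervals includes 1. Without the haemoglobin-rich cell the last ratio was 0.502 (0.315 to 0.843), whose interval does not.

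**Figure D2:**
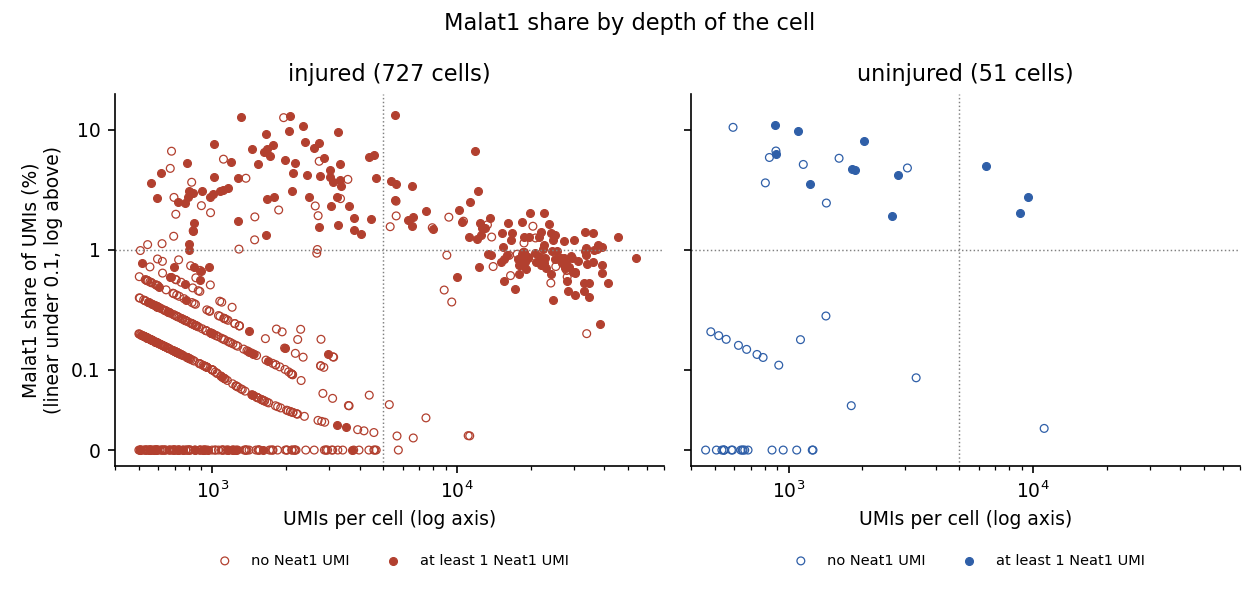
Malat1 share of each cell's UMIs (linear under 0.1%, log above) against the cell's UMIs (log axis) in 727 injured and 51 uninjured cells; filled points have at least 1 Neat1 UMI, and dotted lines mark 1% Malat1 and 5000 UMIs. Lines of points at the lower left are cells with 1, 2 or 3 Malat1 UMIs; no uninjured cell lies between 0.281% and 1.93%, whereas injured cells fill that range.

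The uninjured cells fell on both sides of a gap. Of the 51, 31 had at most 0.281% Malat1 and 20 had at least 1.93%, with none between. The lower side included 18 cells without any Malat1 UMI, of 458 to 1259 UMIs each; pooled, these 18 cells had 0 of 12984 UMIs, which allows a share of up to 0.0284% by the exact interval. Ribosomal protein genes took under 5% of UMIs in 15 of the 20 cells above the gap and in 1 of the 31 below, the haemoglobin-rich cell, and at least 10% in 28 of the 31 below. The gap was seen after the values and over few cells, and no test of it was made.

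In injured cells the shares filled that range. Among the 583 injured cells under 5000 UMIs, 141 had no Malat1 UMI, 72 had 0.25 to 0.5%, 38 had 0.5 to 1%, 21 had 1 to 2%, 34 had 2 to 4%, 29 had 4 to 8% and 7 had 8% or more. A divide at 1% thus cuts through a continuous range here: 59 injured cells and 1 uninjured cell under 5000 UMIs lay between 0.5% and 2%. The injured cells nearest the divide had 0.996%, 0.986% and 0.937% on its lower side and 1.01%, 1.01% and 1.11% on its upper side. Injured cells without Malat1 were not all shallow: 26 of the 142 had at least 2000 UMIs, and 1 had 5755.

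With the divide at 1%, cells under 5000 UMIs were called Malat1-rich or Malat1-poor, which is a range and not a cell type. Malat1-rich cells numbered 91 of 583 shallow injured cells (15.6%) and 17 of 47 shallow uninjured cells (36.2%), and Malat1-poor cells numbered 492 and 30. In the Malat1-rich cells the Malat1 share ran from 1.01% over a median of 3.27% to 13.02% in injured cells, and from 1.93% over 5.13% to 10.9% in uninjured cells. In the Malat1-poor cells it ran from 0% over a median of 0.132% to 0.996% in injured cells, and from 0% over 0% to 0.281% in uninjured cells. Deep cells lay between: 0% to 13.3% with a median of 0.911% in injured cells, and 0.0270% to 5.01% with a median of 2.38% in the 4 uninjured cells.

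Deep cells held about as much of each library's Malat1 as of all its UMIs. They held 78.3% of injured Malat1 and 79.9% of all injured UMIs, and 36.1% of uninjured Malat1 and 41.1% of all uninjured UMIs. Malat1-rich cells held 19.8% of injured Malat1, against 63.1% of uninjured Malat1, and Malat1-poor cells held 1.89% and 0.848%. Within Malat1-rich cells the Malat1 level was 42649 CPM in injured, against 52278 CPM in uninjured cells, a ratio of 0.816 (0.770 to 0.865). Within Malat1-poor cells it was 1262 CPM in injured, against 694 CPM from 18 UMIs in uninjured cells, a ratio of 1.82 (1.14 to 3.09). The divide is set on Malat1 itself and bounds its level on either side, so these 2 ratios describe the classes and are not comparable with the 0.423 (0.405 to 0.442) over all cells.

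The 4 deep uninjured cells were unlike one another. Their Malat1 counts were 321 of 6406 UMIs, 180 of 8863, 261 of 9567 and, in the haemoglobin-rich cell, 3 of 11100. Their Neat1 counts were 5, 6, 9 and 0 in the same order. In the haemoglobin-rich cell Malat1 was 0.331% of the 906 UMIs from other genes. Over deep cells the Malat1 ratio of injured over uninjured was 0.472 (0.440 to 0.508) with that cell and 0.328 (0.305 to 0.353) without it, and the Neat1 ratio was 0.403 (0.259 to 0.665) with it and 0.279 (0.179 to 0.459) without it. Deep cells are not matched in depth here, with a median of 19206 UMIs in injured and 9215 UMIs in uninjured cells.

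Among the 144 deep injured cells, 7 were nearly free of both RNAs. Together they had 12 Malat1 and 0 Neat1 UMIs of 53189, a Malat1 share of 0.0226% (0.0117 to 0.0394), and none exceeded 0.0568%. These cells had 5285 to 11270 UMIs from 1534 to 2159 genes each, and the macrophage and microglia list took 5.25% to 9.86% of their UMIs. Ribosomal protein genes took 9.08% to 19.6% and mitochondrial genes 0.0604% to 4.19%, under 1% in 4 of the 7. A further 2 deep injured cells lay under 0.25%, with 68 Malat1 UMIs of 33904 and 93 of 38425. The other 135 deep injured cells had 0.368% to 13.3% Malat1 with a median of 0.947%, and a mitochondrial share of at least 1.03%. These cells were picked out after their values were seen.

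Neat1 was most abundant in the cells with most Malat1. In shallow injured cells grouped by Malat1 share, Neat1 took 0.00888% of UMIs in 141 cells without Malat1 and 0.00618% in 241 cells above 0 and up to 0.25%. It took 0.0369% in 110 injured cells of 0.25 to 1%, 0.101% in 55 cells of 1 to 4% and 0.243% in 36 cells of 4% or more. In shallow uninjured cells Neat1 had 0 UMIs in the 30 cells under 1% Malat1, 5 UMIs or 0.0820% in 4 cells of 1 to 4% and 16 UMIs or 0.0820% in 13 cells of 4% or more. Neat1 was thus highest where Malat1 was highest in injured cells, while the uninjured counts do not separate the upper classes.

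**Figure D3:**
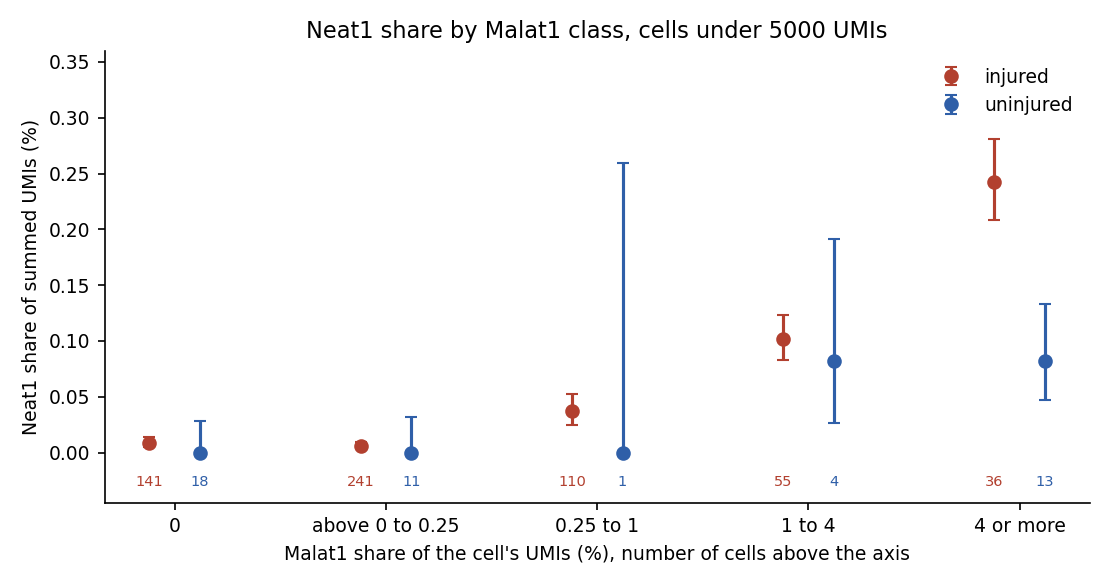
Neat1 share of summed UMIs by the Malat1 share of the cell, in injured and uninjured cells under 5000 UMIs; points are shares, bars exact 95% intervals for counting error, and the figures near the axis are numbers of cells. The injured share runs between 0.00618% and 0.243%, and the uninjured share is 0 in the 3 lower classes.

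The split by Malat1 did not use Neat1, but both are read from the same cells and totals. In Malat1-rich injured cells Neat1 had 284 UMIs or 1612 CPM and in Malat1-poor injured cells 65 UMIs or 114 CPM, 14.1-fold higher in the rich cells (10.7 to 18.8). Of the 2860 genes compared between these cells 85.3% passed 1.5-fold in either direction and 58.7% were higher in Malat1-rich cells, with a median log2 difference of 1.04. The log2 difference of Neat1 was 3.71, and 2827 genes had a lower one. In the uninjured library Neat1 had 21 UMIs or 820 CPM (508 to 1253) in Malat1-rich and 0 UMIs in Malat1-poor cells. With 3 UMIs over the poor cells in place of the 0, it was 7.09-fold higher. That is a setting and not a lower bound, since the exact interval allows up to 142 CPM in the poor cells. There 86.6% of 3334 genes passed 1.5-fold in either direction, and 66.3% were higher in Malat1-rich cells.

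Neat1 was found in 79.2% of deep, 73.6% of Malat1-rich and 9.76% of Malat1-poor injured cells, and in 75%, 52.9% and 0% of uninjured cells (0 of 30, which allows up to 11.6% by the exact interval). Of the UMIs of both RNAs, Neat1 made up 2.18% among deep, 3.64% among Malat1-rich and 8.30% (6.47 to 10.5) among Malat1-poor injured cells. Among uninjured cells the part was 2.55% for deep, 1.54% for Malat1-rich and 0% (0 to 18.5) for Malat1-poor cells. Choosing cells by low Malat1 raises the part of Neat1, so no order was read from these values. Median depth differed between these kinds of cells, with 19206, 1668 and 848 UMIs in deep, Malat1-rich and Malat1-poor injured cells and 9215, 1220 and 657 UMIs in uninjured cells. Thinned to 500 UMIs, Neat1 was found in 11.8%, 51.6% and 5.89% of injured cells and 50%, 29.4% and 0% of uninjured cells in that order.

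Between the libraries Neat1 was higher in the injured cells within the Malat1-rich class and lower within deep cells, which were not matched in depth. In Malat1-rich cells it had 1612 CPM in injured, against 820 CPM in uninjured cells, a ratio of 1.97 (1.26 to 3.23). That uninjured value rests on 21 UMIs in 9 cells. In deep cells Neat1 had 225 CPM in injured, against 557 CPM in uninjured cells, or 805 CPM without the haemoglobin-rich cell. A deep uninjured group of 4 cells with 20 Neat1 UMIs limits that value. Median depth was 19206 UMIs in deep injured and 9215 UMIs in deep uninjured cells. From 5000 to 15000 UMIs the Neat1 ratio was 0.726 (0.456 to 1.22), whose interval includes 1. Without the haemoglobin-rich cell it was 0.502 (0.315 to 0.843).

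Across cells the shares of Malat1 and Neat1 were ordered alike. Spearman's rho was 0.57 over 727 injured and 0.57 over 51 uninjured cells, as a description over cells that share a library, a total and their depth. Thinned to 500 UMIs it was 0.38 in injured and 0.41 in uninjured cells. By depth bin, low to high, rho in injured cells was 0.08, 0.35, 0.45, 0.73, 0.59 and 0.16, so that the relation was weak in cells under 600 and over 15000 UMIs. Counts in cells under 600 UMIs are sparse, and a weak value there is no finding.

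Cells rich in Malat1 had few ribosomal protein UMIs in both libraries. Ribosomal protein genes, which code for the proteins of the cytosolic ribosome, are counted here as 95 rows and made up 14.6% of the injured and 13.9% of the uninjured total, or 15.5% of the uninjured total without the haemoglobin-rich cell. Their median share was 2.87% in Malat1-rich and 17.8% in Malat1-poor injured cells, and 2.46% and 24.1% in uninjured cells. Among deep cells it was 14.8% in injured and 12.3% in uninjured cells. Spearman's rho between the Malat1 and the ribosomal protein share was -0.49 in injured and -0.75 in uninjured cells, and stayed at -0.48 and -0.75 when shares were taken of UMIs without Malat1 and Neat1. Within depth bins of injured cells, low to high, this rho was 0.002, -0.36, -0.49, -0.72, -0.32 and -0.08.

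By classes of ribosomal protein share, the largest fold step in shallow injured cells lay at 10%, while the shares themselves also fell strongly at 5%. In shallow injured cells with under 5% ribosomal protein UMIs (76 cells) Malat1 took 4.62%, from 5 to 10% (40 cells) 2.29%, from 10 to 15% (99 cells) 0.161%, from 15 to 20% (209 cells) 0.113%, and at 20% or more (159 cells) 0.188%. Neat1 took 0.209%, 0.0635%, 0.0112%, 0.00804% and 0.00572% in the same classes. Both RNAs were high under 10% ribosomal protein share and low above it. Among the 3 upper classes Malat1 was lowest from 15 to 20% and highest at 20% or more, whose interval (0.169 to 0.208) lies above that of the class from 15 to 20%. In shallow uninjured cells Malat1 took 5.73% in 15 cells under 5%, 2.88% in 3 cells of 5 to 10%, 0.714% in 8 cells of 15 to 20% and 0.0494% in 20 cells at 20% or more, and the 1 cell of 10 to 15% had none. In the class of 15 to 20%, 1 cell held 51 of the 55 Malat1 UMIs, and the other 7 cells had 0.0792%. Deep injured cells showed the same order at the low end, with 4.22% Malat1 in 7 cells under 5% and 0.904% in 56 cells of 10 to 15%, but 1.62% in 7 cells at 20% or more.

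Mitochondrial RNA went with Malat1 in injured cells and against it in uninjured cells. The 13 mitochondrial rows, encoded in the mitochondrial genome, made up 2.75% of the injured and 5.39% of the uninjured total, and no cell exceeded 19.7%. The median mitochondrial share was 10.7% in Malat1-rich and 0.503% in Malat1-poor injured cells, but 3.11% in Malat1-rich and 8.11% in Malat1-poor uninjured cells. Spearman's rho between the Malat1 and the mitochondrial share was 0.59 over injured and -0.38 over uninjured cells, and -0.40 without the haemoglobin-rich cell. Thinned to 500 UMIs it was 0.55 and -0.41. Within depth bins of injured cells, low to high, it was 0.02, 0.27, 0.49, 0.73, 0.47 and 0.08. The relation was thus weak under 600 and over 15000 UMIs. Whether the 2 libraries differ in this relation beyond chance cannot be tested with 1 library each.

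The same reversal appeared in the single mitochondrial genes. In shallow injured cells all 12 mitochondrial genes that were seen in at least 10% of them had a positive rho with Malat1, with a median of 0.39, and all 12 were positive in deep injured cells, with a median of 0.20. In uninjured cells 11 of the 12 were negative, with a median of -0.28. Of 81 ribosomal protein genes, all 81 were negative in shallow injured cells (median -0.31) and in uninjured cells (median -0.53), and 78 in deep injured cells. Within the Malat1-rich injured cells rho was 0.04 for the mitochondrial share, -0.36 for the ribosomal protein share and 0.44 for Neat1, so that among these 91 cells the mitochondrial share no longer ordered the Malat1 share.

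By classes of mitochondrial share, Malat1 in shallow injured cells took 0.150% under 1% (345 cells), 0.320% from 1 to 2% (82 cells), 1.90% from 2 to 5% (57 cells), 2.53% from 5 to 10% (38 cells) and 3.82% at 10% or more (61 cells). In shallow uninjured cells it took 5.58% under 1% (5 cells), 2.45% from 1 to 2% (2 cells), 2.62% from 2 to 5% (10 cells), 2.84% from 5 to 10% (19 cells) and 0.0720% at 10% or more (11 cells). In shallow injured cells with under 10% ribosomal protein UMIs, Malat1 took 3.95% where the mitochondrial share was 5% or more (79 cells) and 3.07% where it was lower (37 cells). With 10% ribosomal protein UMIs or more, it took 0.136% where the mitochondrial share was 5% or more (20 cells) and 0.149% where it was lower (447 cells). Those are sums; the median cell had 2.76% and 0.722% Malat1 under 10% ribosomal protein UMIs, and 0.0973% and 0.127% at 10% or more, in the same order of mitochondrial share. Under 10% ribosomal protein UMIs, the median cell thus had more Malat1 where the mitochondrial share was high, by more than the sums differed.

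In shallow uninjured cells with under 10% ribosomal protein UMIs, Malat1 took 4.59% at a mitochondrial share of 5% or more (8 cells) and 5.73% below it (10 cells). With 10% ribosomal protein UMIs or more, it took 0.0672% (22 cells) and 0.723% (7 cells). A single cell carries the last value, with all 51 Malat1 UMIs, and the other 6 cells had 0 of 4409 UMIs. Cells high in both ribosomal protein and mitochondrial RNA were thus 20 of 583 shallow injured cells and 22 of 47 shallow uninjured cells. Mitochondrial and ribosomal protein shares themselves were ordered oppositely in injured cells (rho -0.51) and alike in uninjured cells (rho 0.36). Shares of one total limit one another, and the part of that limit, and of the mitochondrial share itself, in these relations was not tested.

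**Figure D4:**
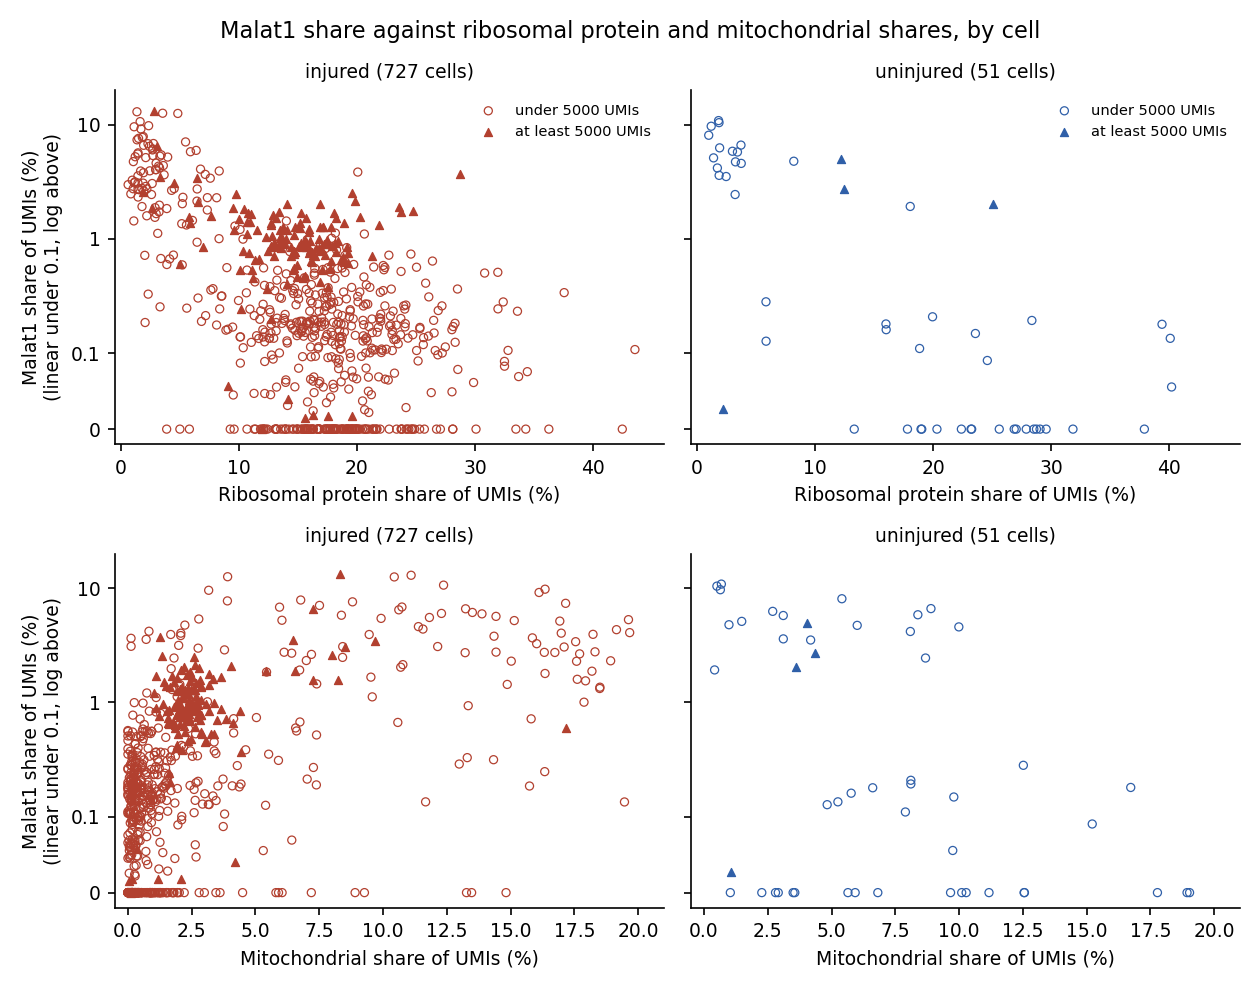
Malat1 share of each cell's UMIs (linear under 0.1%, log above) against its ribosomal protein share (upper row) and mitochondrial share (lower row), in injured cells on the left and uninjured cells on the right; triangles are cells of at least 5000 UMIs. High Malat1 goes with a low ribosomal protein share in both libraries (rho -0.49 and -0.75), and with a high mitochondrial share in injured cells alone (rho 0.59, against -0.38 in uninjured cells).

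Genes whose share was ordered most like that of Malat1 were found by a fixed rule over the 583 injured cells under 5000 UMIs, among 1239 genes seen in at least 10% of them, with mitochondrial and ribosomal protein genes set apart. The first 10 were Jmjd1c (rho 0.52), Gm26917 (0.48), Ccnl1 (0.47), Mycbp2 (0.44), Clk1 (0.44), Neat1 (0.44), Rbm25 (0.44), Dennd4a (0.43), Macf1 (0.43) and AC149090.1 (0.43). Jmjd1c codes for a nuclear protein of the histone demethylase family, Ccnl1 for a cyclin of nuclear speckles, Clk1 for a kinase of splicing factors, Rbm25 for a splicing regulator and Macf1 for a linker of microtubules and actin. The 10 genes most like Neat1 held 8 of these: Gm26917 (0.54), Jmjd1c (0.54), Ccnl1 (0.50), AC149090.1 (0.47), Macf1 (0.46), Nktr (0.46), Mycbp2 (0.45), Dennd4a (0.45), Clk1 (0.44) and Malat1 (0.44). Neat1 was therefore 6th in the order for Malat1, and Malat1 10th in the order for Neat1.

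These genes were chosen for their order with Malat1 in the shallow injured cells, so their levels in those cells only put that choice in CPM. Jmjd1c had 828 CPM in Malat1-rich and 26.4 CPM in Malat1-poor injured cells, Ccnl1 1152 and 51.0 CPM, and Macf1 1396 and 120 CPM. In uninjured cells, which the choice did not use, Ccnl1 had 31 UMIs or 1210 CPM in Malat1-rich and 0 UMIs in Malat1-poor cells, and Jmjd1c 29 UMIs or 1132 CPM and 0 UMIs. Over the 51 uninjured cells the rho with Malat1 was 0.61 for Jmjd1c, 0.72 for Ccnl1 and 0.67 for Dennd4a, and over the 144 deep injured cells it was 0.36, 0.29 and 0.15. The lowest uninjured rho among the 10 genes was 0.45, for AC149090.1. Gm26917 lies beside Gm42418 and AY036118 on chromosome 17, loci known to overlap ribosomal RNA repeats. Whether its own counts hold ribosomal RNA was not tested. It had 149 UMIs in Malat1-rich and 17 UMIs in Malat1-poor injured cells, and 7 and 0 UMIs in uninjured cells. In uninjured cells Gm42418 had 8199 CPM in Malat1-rich and 18651 CPM in Malat1-poor cells, and AY036118 937 and 2505 CPM. The genes named for Malat1 span a median of 51.9 kb and those named for Neat1 37.7 kb, without AC149090.1, which has no annotated position here; the 1231 ranked genes with a position span a median of 13.2 kb.

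At the other end stood abundant transcripts of short genes. The 5 genes ordered most against Malat1 were Tmsb4x (rho -0.43), which codes for an actin-binding peptide, Tyrobp (-0.42), an adaptor of microglial receptors, Fau (-0.40), a ribosomal protein fused to a ubiquitin-like part, C1qb (-0.37), a chain of complement C1q, and Tpt1 (-0.37). For Neat1 they were Tmsb4x (-0.42), Eef1a1 (-0.41), the translation elongation factor, Ftl1 (-0.39) and Fth1 (-0.35), the ferritin chains, and Fau (-0.38). Over deep injured cells the rho was -0.41, -0.49, -0.21, -0.30 and 0.02 for the genes of Malat1 in their order. For those of Neat1 it was -0.07, -0.10, -0.02, -0.003 and -0.18. Over uninjured cells it ran from -0.74 to -0.23 for the genes of Malat1 and from -0.47 to -0.34 for those of Neat1. Tmsb4x had 4176 CPM in Malat1-rich and 28452 CPM in Malat1-poor injured cells, and 3943 and 25125 CPM in uninjured cells. Tyrobp had 948 and 6168 CPM in injured cells, and 859 and 3160 CPM in uninjured cells.

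Genes for nuclear speckle and splicing proteins, which fill the bodies in which Malat1 resides, were mostly lower in the injured library. None of the 26 compared was higher by at least 1.5-fold, 15 were lower and 11 lay between, with a median log2 difference of -0.77, against 0.17 over all 4021 genes, of which 32.8% were higher and 21.8% lower. Without the haemoglobin-rich cell 18 of 27 passed as lower and 0 as higher, and the list's median was -0.995, against -0.0057 over all genes, of which 28.5% were lower. Tra2a and Tra2b, paired activators of exon inclusion, had 89.5 and 112 CPM in injured cells, against 309 and 354 CPM in uninjured cells (log2 -1.68 and -1.58). Luc7l2, a protein of the spliceosome's first steps, had 157 CPM in injured, against 446 CPM in uninjured cells (log2 -1.45), and Pnisr 86.0 and 251 CPM (log2 -1.45). Srrm2, which scaffolds the speckle, had 341 CPM in injured, against 354 CPM in uninjured cells, a ratio of 0.962 (0.675 to 1.42). This is the direction of Malat1 itself. Other lists were lower too: 15 of 21 immediate early and stress genes (median -1.21) and 8 of 9 oligodendrocyte and myelin genes (median -2.50). Shallow Malat1-rich cells were 12.5% of injured and 33.3% of uninjured cells, and the part of that makeup, and of stress and myelin RNA, in these differences was not tested.

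Of 15 genes compared for paraspeckle proteins, the partners of Neat1, 1 was higher, 6 were lower and 8 lay between, with a median log2 difference of -0.42. Over all genes 54.5% passed the fold in either direction, near the 7 of 15 here, but the directions differed. Lower were 40% of the list, against 21.8% of all genes, and higher were 6.67%, against 32.8%. The median over all genes was 0.17. Without the haemoglobin-rich cell 9 of 16 were lower (56.2%), against 28.5% of all genes. The list is small, and no test was made. Taf15, an RNA-binding protein, had 54.6 CPM in injured, against 160 CPM in uninjured cells (log2 -1.40), and Cpsf7, a subunit of a cleavage factor, 17.3 and 80.0 CPM (log2 -1.72). Cpsf7 had 64 injured and 7 uninjured UMIs, and passed the detection filter only through the uninjured cells, where it was high. Nudt21, another subunit of that factor, had 126 UMIs in injured and 0 in uninjured cells, a level of 34.1 CPM beside an uninjured floor of 34.3 CPM, so no fold is given. The core proteins encoded by Sfpq and Nono lay between the limits: Sfpq had 136 CPM in injured, against 160 CPM in uninjured cells (0.852, 0.503 to 1.57), and Nono 75.2 and 57.1 CPM (1.32, 0.557 to 4.08). Of 14 nuclear long noncoding RNAs listed, 10 had rows and 3 were compared; besides the members this was Kcnq1ot1, a nuclear RNA of an imprinted domain, with 52.2 CPM in injured, against 57.1 CPM from 5 UMIs in uninjured cells.

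Between Malat1-rich and Malat1-poor cells the speckle genes were higher in the rich cells in both libraries. In injured cells 22 of 26 were higher and 0 were lower, while 4 lay between; the median log2 difference was 2.07, against 1.04 over all genes, of which 58.7% were higher and 26.6% lower. Rbm25 was 23.4-fold higher (14 to 41.4), Tra2b 22.6-fold (11.9 to 47.1) and Clk1 12.9-fold (8.59 to 19.96). In uninjured cells 25 of 27 were higher and the other 2 lower; the median was 2.34, against 1.67 over all genes, of which 66.3% were higher and 20.3% lower; these counts are small, with 19 UMIs of Tra2b in the rich cells, against 3 in the poor ones. Kcnq1ot1 was higher in the rich injured cells by 3.57 on the log2 scale. Genes that passed the detection filter only through the deeper rich cells add to the higher side, in the list and among all genes.

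For paraspeckle proteins the medians of this comparison lay near those of all genes. In injured cells 9 of 12 were higher in the rich cells, 1 lower and 2 between (median log2 1.11, against 1.04), and in uninjured cells 10 of 14 were higher and 2 lower (median 1.45, against 1.67). Of all genes 58.7% were higher and 26.6% lower in injured cells, and 66.3% and 20.3% in uninjured cells. No trait of this list was read from its counts. Cpsf7 had 90.8 CPM in Malat1-rich, against 15.8 CPM in Malat1-poor injured cells, a ratio of 5.74 (2.39 to 14.7), and Sfpq 318 and 94.9 CPM, a ratio of 3.35 (2.26 to 4.96). The Cpsf7 values rest on few UMIs, where 3 UMIs make 17.0 CPM in the rich and 5.27 CPM in the poor cells. Cpsf7 passed the detection filter only through the rich cells, where it was high, so its ratio describes that choice. Nono was lower in the rich injured cells, with 62.4 CPM in Malat1-rich and 121 CPM in Malat1-poor cells, a ratio of 0.515 (0.246 to 0.979). Hnrnpk lay between the limits, with 216 CPM in Malat1-rich, against 322 CPM in Malat1-poor injured cells, a ratio of 0.670 (0.460 to 0.955). Genes of macrophages and microglia were mostly lower in the rich injured cells. There 1 of 13 was higher, 9 were lower and 3 lay between (median -1.48, against 1.04 over all genes). All genes were 58.7% higher and 26.6% lower there. In uninjured cells 5 of 15 were higher, 5 lower and 5 between (median -0.12, against 1.67), beside 66.3% higher and 20.3% lower of all genes.

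**Figure D5:**
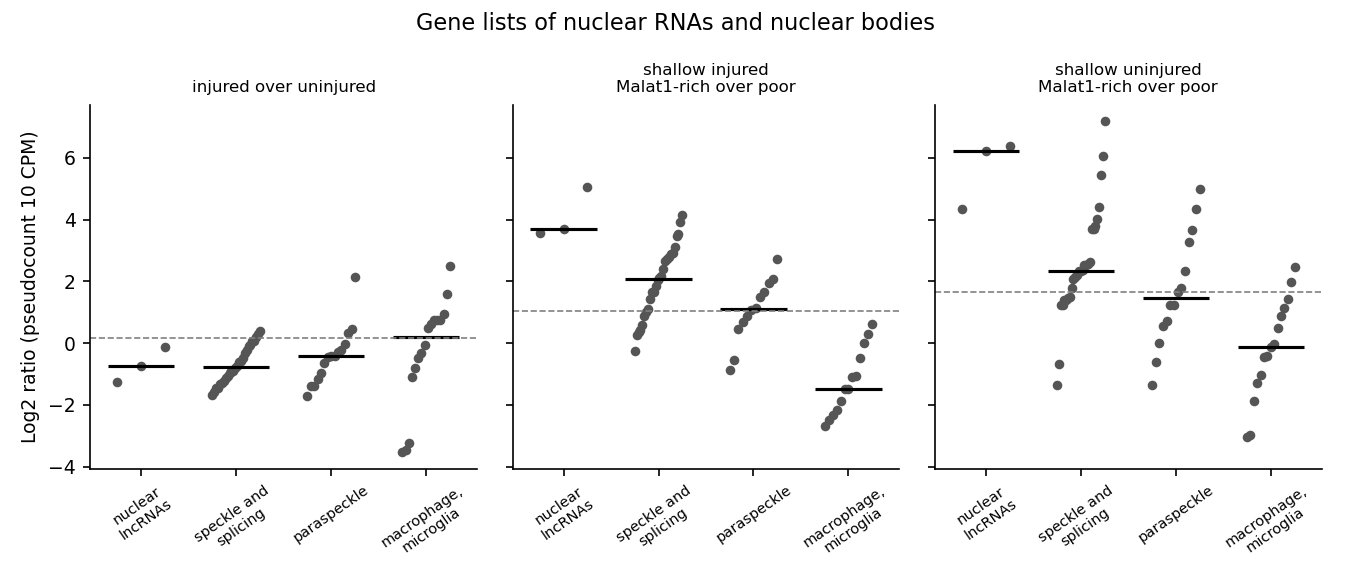
Log2 ratios (pseudocount of 10 CPM) of the members of 4 gene lists, for injured over uninjured cells (left) and for Malat1-rich over Malat1-poor cells under 5000 UMIs in injured (middle) and uninjured cells (right); each point is a gene, the solid bar its list's median and the dashed line the median of all genes compared. The speckle list lies under the dashed line on the left (-0.77 against 0.17) and over it in the middle (2.07 against 1.04), and the list of nuclear RNAs holds Malat1 itself, which defines the split.

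The summed share of other long noncoding RNAs was also higher in Malat1-rich cells, and it was not split by their place in the cell. Long noncoding RNAs other than Malat1 and Neat1, loci of ribosomal RNA repeats left out, took 0.629% of UMIs in Malat1-rich and 0.235% in Malat1-poor injured cells, and 1.05% and 0.212% in uninjured cells. The median gene compared was also higher in the rich cells, by 1.04 in injured and 1.67 in uninjured cells on the log2 scale. Genes entered when seen in at least 10% of either class, and the rich cells were deeper at the median. That filter favours genes high in the rich cells, so these medians serve as a background only. The loci that overlap ribosomal RNA repeats took 8.39% in Malat1-rich and 4.41% in Malat1-poor injured cells, but 0.941% and 2.12% in uninjured cells. Immediate early and stress genes, which tissue dissociation can induce, took 0.966% in Malat1-rich and 0.399% in Malat1-poor injured cells, and 3.95% and 0.624% in uninjured cells; 16 of 19 and 20 of 21 compared were higher in the rich cells, and 0 lower, against 58.7% and 66.3% of all genes higher. Their part in the Malat1 values was not tested.

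Markers of the cell types that the dissection could hold were set beside the members. The macrophage and microglia list took 6.12% of UMIs of deep, 2.10% of Malat1-rich and 4.95% of Malat1-poor injured cells. In uninjured cells it took 3.66%, 3.68% and 3.83% in that order, and 5.29% in deep cells without the haemoglobin-rich one. Myelin genes took 0.479% in Malat1-rich and 0.725% in Malat1-poor injured cells, and 0.886% and 2.10% in uninjured cells. Of the astrocyte list, Slc1a3 alone was seen in Malat1-rich uninjured cells, with 83 UMIs, while Gfap, Aqp4, Aldoc, Slc1a2 and Gja1 were at 0. Of the neuron list, Kif5a alone was seen in uninjured cells, with 27 of its 33 UMIs in Malat1-poor cells.

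The members were also read in cells with T cell genes. The 5 injured cells with UMIs of at least 2 T cell genes had a Malat1 share of 2.62% (2.41 to 2.85), from 1.44% over a median of 1.92% to 3.86%, but 2 Neat1 UMIs of 21770. Without them the log2 difference between injured and uninjured cells was -1.25 for Malat1 and -0.75 for Neat1. Endothelial, fibroblast and neutrophil lists took at most 0.0347%, 0.00771% and 0.00794% of UMIs in any kind of cell of either library.

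The annotated neighbours did not share the abundance of the pair. Of the genes within 100 kb of Malat1 or Neat1 with rows in the table, Ehbp1l1 was the most counted after them in injured cells, with 44.1 CPM in injured, against 34.3 CPM in uninjured cells. Frmd8, the next protein-coding gene beyond Neat1, had 21.6 CPM in injured, against 45.7 CPM from 4 UMIs in uninjured cells, and Frmd8os, an antisense gene that starts close to the Neat1 start, had 2 UMIs in injured and 0 in uninjured cells. On the Malat1 side Ltbp3 had 66 UMIs or 17.8 CPM in injured and 0 UMIs in uninjured cells. With so few uninjured UMIs, no direction was read from these levels.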

How the data were processed

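Cells of dissected, digested and triturated optic nerve were captured with 10x Genomics 3′ droplet chemistry, version v2, per the series' design text. The submitters' processing notes name bcl2fastq 2.17.1.14, Cell Ranger 1.3, Seurat 4.0.3 and the mm10 build. Not given in the sources used here are the annotation release, the strand setting, the treatment of intron reads and how cells were selected. The authors deposited raw UMI counts, whole numbers without normalization, for 778 cells selected as macrophages or microglia.

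Counts were summed per library, or per kind of cell, and scaled to CPM. A 0 was read against 3 UMIs. Genes detected in 10% or more of either library's cells were compared and called at 1.5-fold on log2(CPM + 10). Between Malat1-rich and Malat1-poor cells the 10% applied to either class. The 26 rows whose names had become dates stayed in totals only. The script was tested on simulated data. Deep cells had at least 5000 UMIs, Malat1-rich cells at least 1% Malat1. No doublet caller was run. Sequences and positions are from GENCODE vM21, which uses mm10. Python 3.11.15, numpy 2.4.6, pandas 2.3.3, scipy 1.17.1 and matplotlib 3.10.9 were used. The pseudocount understates differences of scarce genes, those with few or no uninjured UMIs can be overstated, and the 42.3 times smaller uninjured library sets the precision.

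The members, lists and divides were chosen with earlier results of these data known. Named genes are the members, the 10 genes ordered most like and the 5 most against each, up to 4 genes with the largest log2 difference from each list of nuclear RNAs, paraspeckle and speckle proteins, and annotated neighbours; Srrm2, Sfpq, Nono, Hnrnpk and single markers were added after their values were seen. Alternatives were other weights, thinning to 500 UMIs, depth limits, left-out cells, other totals, pseudocounts and divides. Single values of some genes are not reported here.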

Additional observations from a re-analysis of the deposited data

How the results depend on the processing

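Malat1 was lower in injured cells under each of the 13 alternatives tried: the log2 difference of -1.24 was -1.32 with equal weight for each cell, -1.39 thinned to 500 UMIs, -1.08 in cells of at least 5000 UMIs, -1.43 without the haemoglobin-rich uninjured cell and -1.11 without the uninjured cell with the most Malat1 UMIs. Neat1 did not keep its direction: -0.75 became 0.0042 with equal weight for each cell and 0.20 in cells under 5000 UMIs, and -1.27 in cells of at least 5000 UMIs; under the other 10 it ran from -0.95 to -0.57. The cause was not tested.

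Of all genes, 2193 passed 1.5-fold, 60.1% of them higher in injured cells. Without the filter on detection 6083 passed (49.0% higher), with a pseudocount of 50 CPM 1381, with the median log2 difference of 0.17 removed 2180 (1091 higher, 1089 lower) and without the haemoglobin-rich cell 2305 (49.2% higher). Malat1-rich cells were 22.1% of shallow injured cells with a divide at 0.5%, 12.0% at 2% and 11.1% among cells under 2000 UMIs, against 15.6%; the uninjured share ran from 31.0% to 36.2%. Spearman's rho between Malat1 and Neat1 was 0.38 in injured and 0.41 in uninjured cells after thinning, against 0.57 and 0.57. The relations to mitochondrial and ribosomal protein shares kept their sign and lay within 0.1 under each alternative.

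No paired analysis was possible because there was 1 library per condition, and leaving out a replicate was not possible for the same reason. The uninjured depth limits all ratios, and the left-out T cell-gene cells, the left-out injured cell and the left-out haemoglobin-rich cell for genes, gene lists and the bin of 5000 to 15000 UMIs were chosen after seeing the data.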

Other observations

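Xist, the nuclear long noncoding RNA that coats the inactive X chromosome of female cells, had a row in the table with 0 UMIs in injured and 0 in uninjured cells. Its antisense partner Tsix had 1 UMI in an injured cell and 0 in uninjured cells. Of the Y-linked genes Ddx3y, Eif2s3y, Uty and Kdm5d, 199 of 727 injured cells (27.4%, 24.2 to 30.8) had at least 1 UMI, against 12 of 51 uninjured cells (23.5%, 12.8 to 37.5). Among deep injured cells they were 114 of 144 (79.2%). The design text gives both sexes, and these values are given without an explanation.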
